A study of Homo sapiens with 2 samples.

Results

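AP-1 is a family of dimeric transcription factors whose subunits carry a basic region that binds DNA and a leucine zipper that pairs the subunits. FOS proteins need a partner, usually a JUN protein, whereas JUN proteins can also pair with each other, so the supply of each subunit sets which dimers can form. In glioma cells AP-1 is known for its part in growth factor, stress and inflammatory signalling and in mesenchymal gene expression. The genes described here are FOS, FOSB, FOSL1 and FOSL2 of the FOS family, JUN, JUNB and JUND of the JUN family, the stress factor ATF3, the small MAF protein MAFF, and BATF3, a basic leucine zipper factor that pairs with JUN proteins. They were taken by gene name from the deposited expression table, which held 1 row for each of the 10 among 58735 genes.

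The cells were U87MG, an established human glioblastoma line, kept for a week as glioma spheres in stem cell culture. One population had received a lentiviral shRNA against TRIP13 and the other the pGIPZ control vector, and both had been put through puromycin selection for stable clones. The sources do not state how many clones each population held or the sequence of the shRNA. Each group had 1 library. No difference below therefore has a replicate check, there is no test, and the values describe these 2 libraries. The same table had 1593 against 819 reads for TRIP13, or 23.1 FPKM in the library labelled shTRIP13 and 11.9 FPKM in the shcon library, which goes against the label. The libraries are therefore named by their labels, shTRIP13 and shcon, and every direction is one between libraries as labelled.

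Values are FPKM, which scales reads to the exon length of a gene and to a library total, so that genes can be compared within a library. For each member this length is that of the merged exons of all its transcripts in GENCODE release 29. JUN and JUNB have 1 such transcript and FOSB has 13. Which transcripts were present was not tested, so orders and shares between genes depend on this length. The whole reads behind them were recovered, 19903836 for the library labelled shTRIP13 and 18871063 for the shcon library. The authors' FPKM shares 1 divisor between the libraries and is not corrected for this depth ratio of 1.05. Own-total ratios below therefore set each library over its own total, with a 95% exact (Clopper-Pearson) interval from the split of the reads. Log2 ratios, the counts, ranks and medians drawn from them, and family sums keep the deposited FPKM without this correction, unless another scaling is named. The intervals hold counting error alone, not the variation between cultures, and reads without molecular identifiers need not be separate molecules. Of the glioma and stem cell markers, VIM and CD44 were high in both libraries, at 427 against 442 and 112 against 115 FPKM, while SOX2 had 1 read against 2 and PROM1 1 against 5. CHI3L1 and OLIG2 were at least 2-fold lower, at 57.8 against 670 and 0.339 against 2.72 FPKM, NES had 2.21 against 5.23 FPKM, and GFAP was low in both at 0.119 against 0.392. Of 8 markers of other cell types 0 reached a mean of 1 FPKM. Their summed level was 1.10 FPKM in the library labelled shTRIP13 and 1.90 FPKM in the shcon library, from 89 and 248 reads. The endothelial markers PECAM1 and VWF had 1 against 45 and 6 against 75 reads, the leukocyte marker PTPRC 0 against 11, the epithelial marker EPCAM 31 against 24, and AIF1, a microglial marker, 0 in both. These markers were lower in sum in the same library as most AP-1 genes, and their part in the results below was not tested.

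The start regions of these genes are shown first, because FOS, FOSB, JUN and JUNB are known to be induced within minutes of a signal through short elements close to their start sites. RefSeq windows of 250 bases before to 50 after a start (build GRCh38.p14) matched 8 of the 10 genes, with FOSL1 and BATF3 unmatched. The windows were searched on both strands for TGACGTCA, the cAMP response element, for its shorter form TGACGT, which also lies inside the longer one, and for TGACATCA, an AP-1-like element known from the JUN promoter. Stretches of 30 bases around the matches are given 5′ to 3′ on the strand of the gene, with the match in capitals.
FOS: tggttgagcccgTGACGTttacactcattc
FOSB: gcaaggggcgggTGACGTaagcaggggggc
MAFF: cggccgggtcggTGACGTCAccgcatgact
JUND: cggccgcccccaTGACGTCAacccacaagg
FOSL2: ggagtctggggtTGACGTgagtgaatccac
JUN: aaggccttggggTGACATCAtgggctattt
ATF3: tcacctatgataTGACATCAtatggccact

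The FOS stretch lies on chromosome 14 (chr14:75278752-75278781, plus strand) and its match begins 64 bases before the start. The FOSB stretch lies on chromosome 19 (chr19:45467924-45467953, plus strand), with the match 60 bases before the start. In MAFF (chr22:38201928-38201957, plus strand) the match lies at -54, and in FOSL2 (chr2:28392780-28392809, plus strand) at -66. JUN (chr1:58784097-58784126, minus strand) has its match at -67, whereas the matches of ATF3 (chr1:212565272-212565301, plus strand) and JUND (chr19:18281805-18281834, minus strand) lie farther out, at -123 and -200. JUND has a further TGACGT at -87, on the opposite strand. MAFF and ATF3 each had another window, which held none of the 3 sequences. In the JUN window and in both MAFF windows all 250 bases before the start lie in exons of GENCODE release 29. JUNB held none of the 3 sequences, which says only that these letters are not in its window. The AP-1 site TGACTCA and the CArG box were also searched for. TGACTCA was found in FOSL2 alone, at position 5 from the start, and the CArG box in no member window. Sequence more than 250 bases before a start was not searched. A missing match therefore does not show that a gene lacks the element. Of 35116 windows of the same length, 7.98% held TGACGT, 1.85% TGACGTCA, 2.61% TGACATCA, 4.95% TGACTCA and 1.29% a CArG box. These matches describe the sequence only. The 5 members with TGACGT, alone or inside TGACGTCA, had log2 ratios between the libraries, defined below, of -2.18 for FOS, -1.33 for FOSB, -1.69 for MAFF, -0.53 for JUND and 0.14 for FOSL2. The members with a window but without TGACGT had -1.24 for ATF3, -0.86 for JUNB and -0.03 for JUN. A link between these sequences and the ratios was not tested.

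FOS and FOSB, the members with the lowest own-total ratios (given below), are shown with the upstream bases outside exons of GENCODE release 29. These are 196 bases for FOS (chr14:75278578-75278773) and 249 for FOSB (chr19:45467746-45467994), both on the plus strand. By log2 ratio MAFF lay between them. Capitals mark TGACGT in both and the TATA box in FOSB.
FOS: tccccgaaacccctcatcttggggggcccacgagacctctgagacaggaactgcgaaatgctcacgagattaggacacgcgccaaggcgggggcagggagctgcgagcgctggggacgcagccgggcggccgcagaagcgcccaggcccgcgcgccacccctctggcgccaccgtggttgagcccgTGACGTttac
FOSB: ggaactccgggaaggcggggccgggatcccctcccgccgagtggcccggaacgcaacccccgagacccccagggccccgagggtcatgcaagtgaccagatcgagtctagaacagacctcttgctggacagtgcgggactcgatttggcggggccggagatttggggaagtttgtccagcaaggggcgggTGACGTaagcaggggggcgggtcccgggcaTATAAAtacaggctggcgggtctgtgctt

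The TATA box (TATAAA or TATATA, searched on the gene's strand) was found at -30 in FOSB, at -33 in FOS and at -31 in JUNB. ATF3 had a match in each of its 2 windows, at 25 bases after 1 start and at -230 from the other, and 10.2% of all windows held one.

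The study set spheres given an shRNA against TRIP13 beside control spheres, but with TRIP13 higher under the shTRIP13 label, exchanged labels and a lost knockdown cannot be told apart here. In the library labelled shTRIP13 most AP-1 genes were lower, and the most abundant of them, FOSL1, was higher. FOS, FOSB, ATF3 and MAFF were at least 2-fold lower, JUNB, JUND and BATF3 lower by less, JUN and FOSL2 close to level, and FOSL1 1.75 times as high by own totals. Differences were sized as the log2 ratio of FPKM + 1, the library labelled shTRIP13 over the shcon library, which understates the differences of weakly expressed genes. All 10 members passed the filter of a mean FPKM of 1 or more, which 10671 of 19951 protein-coding genes passed. A log2 ratio of -1 or less was found for 4 of the 10, against 4.19% of all tested genes, and a log2 ratio of 1 or more for 0 of the 10, against 2.17%. With a pseudocount of 5 in place of 1 the lower count was 2, FOS and MAFF, against 1.69% of all tested genes, since FOSB and ATF3 then had log2 ratios of -0.52 and -0.77. The median log2 ratio was -0.70 over the members and 0.12 over all tested genes. Of the 10 members 8 lay below 0, against 4222 of all 10671 tested genes. Since the members were chosen with earlier results of these data known, these counts describe them and carry no p-value.

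**Figure D1:**
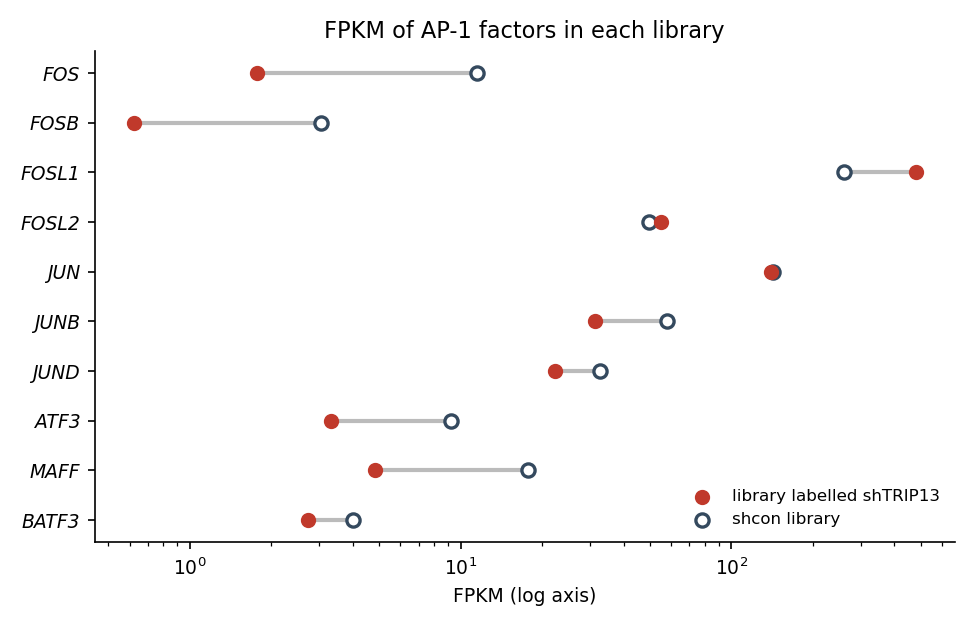
FPKM of the 10 AP-1 factors on a log axis, with filled points for the library labelled shTRIP13 and open points for the shcon library. FOSL1 lies highest in both libraries and farther right in the library labelled shTRIP13 (479 against 259 FPKM), while FOS, FOSB, ATF3 and MAFF lie to the left of their control points.

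Among FOS family genes, FOS (ENSG00000170345, hg38 chromosome 14, 75278774 to 75282230, plus strand), the classical growth factor-induced subunit, had 1.77 FPKM in the library labelled shTRIP13 and 11.5 FPKM in the shcon library. These values rest on 111 and 722 reads. Its own-total ratio was 0.146 (0.118 to 0.178) and its log2 ratio -2.18, the 71st lowest of 10671 tested genes. FOSB (ENSG00000125740, chromosome 19, 45467995 to 45475179, plus strand), which is induced with FOS and has a long-lived truncated form in neurons, had 0.623 against 3.07 FPKM, from 67 and 330 reads. Its own-total ratio was 0.192 (0.146 to 0.251). Both signal-induced FOS genes were thus among the scarcest of the 10 in the library labelled shTRIP13, with FOSB below 1 FPKM there.

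FOSL1 (ENSG00000175592, chromosome 11, 65892049 to 65900573, minus strand) encodes FRA-1, a FOS protein without the strong activation domain of FOS and a known mesenchymal factor in glioblastoma. It stood at 479 FPKM in the library labelled shTRIP13 and 259 FPKM in the shcon library, from 17514 and 9489 reads. The own-total ratio was 1.75 (1.71 to 1.79) and the log2 ratio 0.88, under the 2-fold size rule but the 398th highest of 10671. FOSL1 was already abundant in the shcon library, where it ranked 86th among protein-coding genes, and it ranked 42nd in the library labelled shTRIP13. Of 1548 protein-coding genes that the deposited table assigns to a transcription factor family, it ranked 2nd in the library labelled shTRIP13 and 3rd in the shcon library. FOSL2 (ENSG00000075426, chromosome 2, 28392448 to 28417312, plus strand), which encodes FRA-2, had 54.8 against 49.6 FPKM. Its own-total ratio of 1.05 (1.01 to 1.08) lay close to 1, and its log2 ratio of 0.14 lay close to the median of all tested genes.

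Within the JUN family, JUN (ENSG00000177606, chromosome 1, 58780788 to 58784327, minus strand), the strongest activator of the family, had 140 FPKM in the library labelled shTRIP13 and 143 FPKM in the shcon library, an own-total ratio of 0.927 (0.902 to 0.954). JUNB (ENSG00000171223, chromosome 19, 12791496 to 12793315, plus strand), which can oppose JUN in growth control, had 31.4 against 58.0 FPKM, from 1108 and 2046 reads. Its own-total ratio was 0.513 (0.477 to 0.553) and its log2 ratio -0.86, just short of the size rule, and -1.001 with the median ratio of all tested genes set to 1. Of the exon length of JUNB 14.2% is shared with HOOK2 on the opposite strand, and without a stated strand setting those reads cannot be told apart. HOOK2 had 4.42 against 6.29 FPKM over its whole exon length, and was thus lower in the same library as JUNB. These values do not measure the shared bases, and the part of HOOK2 reads in the JUNB ratio was not tested. JUND (ENSG00000130522, chromosome 19, 18279760 to 18281622, minus strand), known for steady expression in resting cells, had 22.3 against 32.6 FPKM, an own-total ratio of 0.647 (0.591 to 0.708). The JUN family thus differed in a graded way, least for JUN and most for JUNB.

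The remaining members pair with JUN or with other leucine zipper proteins. ATF3 (ENSG00000162772, chromosome 1, 212565334 to 212620777, plus strand), a stress-induced factor that represses many targets as a homodimer, had 3.33 against 9.23 FPKM, from 261 and 723 reads, and a log2 ratio of -1.24. MAFF (ENSG00000185022, chromosome 22, 38200767 to 38216511, plus strand), a small MAF protein without an activation domain, had 4.82 against 17.8 FPKM, from 525 and 1932 reads, and a log2 ratio of -1.69. Their own-total ratios were 0.342 (0.296 to 0.395) for ATF3 and 0.258 (0.234 to 0.284) for MAFF, both lower than for any JUN family gene. BATF3 (ENSG00000123685, chromosome 1, 212686418 to 212699985, minus strand), best known from dendritic cells, had 2.74 against 3.99 FPKM, from 144 and 210 reads. Its own-total ratio of 0.650 (0.522 to 0.808) was close to that of JUND, and its log2 ratio was -0.42. ATF3 and BATF3 lie on the same chromosome arm with 65640 bases between them.

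**Figure D2:**
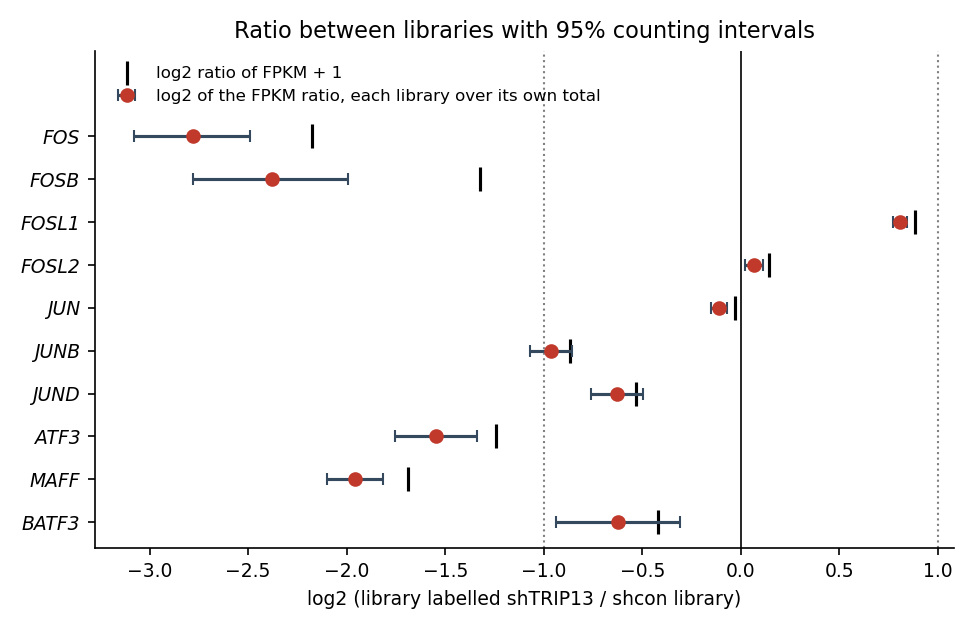
Log2 ratios of the library labelled shTRIP13 over the shcon library for the 10 factors. Red points give each library over its own total with 95% counting intervals, black ticks give the log2 ratio of FPKM + 1, and dotted lines mark -1 and 1; the ticks lie closer to 0 for weakly expressed genes such as FOSB.

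With each library over its own total, the counting interval lay below 1 for 8 of the 10 members, against 34% of all tested genes, and above 1 for 2 of the 10, against 43.2%. The interval held 1 for 0 of the 10 members and for 22.8% of all tested genes. The 2 members nearest to level depend on the scaling. With the deposited FPKM the interval of JUN was 0.951 to 1.01 and held 1. The log2 ratio of FOSL2 was 0.03 after rescaling to TPM and 0.0039 with the median ratio of all tested genes set to 1. The order from the lowest to the highest own-total ratio was FOS, FOSB, MAFF, ATF3, JUNB, JUND, BATF3, JUN, FOSL2 and FOSL1. Neighbours in it whose intervals overlap are FOS and FOSB, FOSB and MAFF, and JUND and BATF3.

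Ordered by level within the shcon library, FOSL1 was followed by JUN, JUNB, FOSL2, JUND, MAFF, FOS, ATF3, BATF3 and FOSB. In the library labelled shTRIP13 the order was FOSL1, JUN, FOSL2, JUNB, JUND, MAFF, ATF3, BATF3, FOS and FOSB. FOSL2 and JUNB stood in the opposite order there, and FOS stood below ATF3 and BATF3. The spread of levels between cultures is not known. By exact Poisson intervals of the reads, ATF3 (2.94 to 3.76 FPKM) and BATF3 (2.31 to 3.22 FPKM) in the library labelled shTRIP13 were the neighbours whose intervals overlapped. The pool of FOS family transcripts was dominated by FOSL1 in both libraries. FOSL1 made up 89.3% (89.1 to 89.6) of the summed FOS family FPKM in the library labelled shTRIP13 and 80.2% (79.7 to 80.6) in the shcon library. FOSL2 made up 10.2% against 15.3%, FOS 0.330% against 3.55% and FOSB 0.116% against 0.947%.

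The summed FPKM of the FOS family was 536 in the library labelled shTRIP13 and 324 in the shcon library. Without FOSL1 the sums were 57.2 and 64.2, so the higher family sum came from FOSL1. Over FOS and FOSB alone the sums were 2.39 and 14.6. The summed FPKM of the JUN family was 193 against 233, and JUN made up 72.2% (71.2 to 73.2) of it against 61.2% (60.2 to 62.1). JUNB made up 16.2% against 24.8% and JUND 11.5% against 14.0%. FOS family transcripts therefore outnumbered JUN family transcripts per length by 2.77 to 1 in the library labelled shTRIP13 and by 1.39 to 1 in the shcon library. These shares are of transcripts, and protein levels and dimers were not measured.

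**Figure D3:**
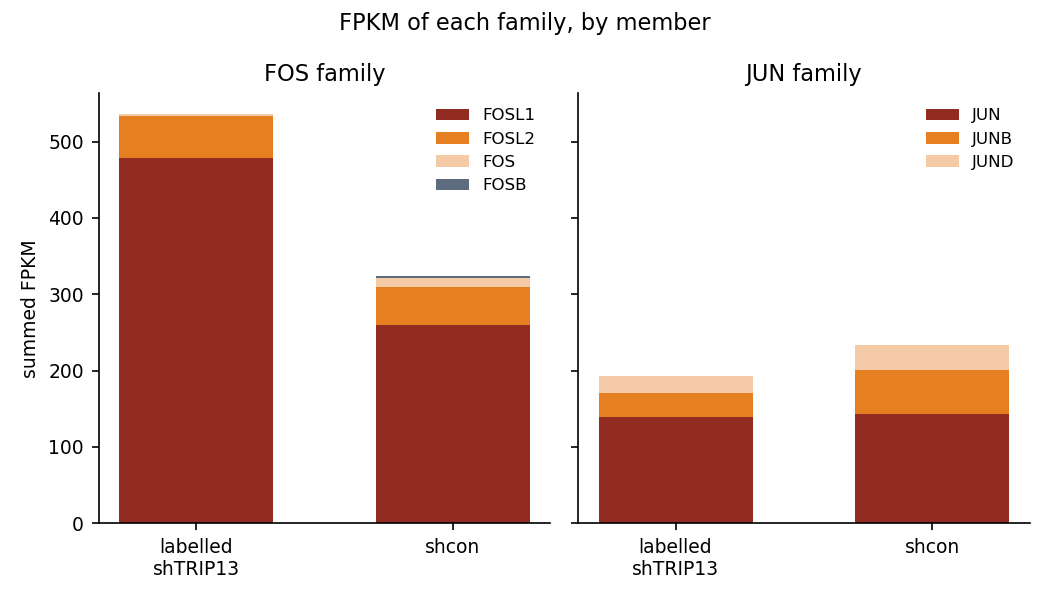
Summed FPKM of the FOS family (left panel) and the JUN family (right panel), with the library labelled shTRIP13 left of the shcon library and bars split by member. FOSL1 fills most of the FOS family bar in both libraries (89.3% against 80.2%), and the JUN family bar is shorter in the library labelled shTRIP13 (193 against 233 FPKM).

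By distance in log2(FPKM + 1) over the 2 libraries, the protein-coding genes closest to FOSL1 were ATP5F1B, a subunit of the mitochondrial ATP synthase (distance 0.14), HSPA5, a chaperone of the endoplasmic reticulum (0.15), and PFN1, an actin-binding protein (0.22). ATP5F1B stood at 442 against 275 FPKM. The genes closest to FOS were BMP2, a bone morphogenetic protein (distance 0.04), PDGFRB, a growth factor receptor (0.10), and ADAM8, a metalloprotease (0.10), with BMP2 at 1.76 against 11.2 FPKM. With 2 libraries this likeness means a similar level and ratio only.

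Other basic leucine zipper factors were mixed. Of a list of 21, which held further AP-1, ATF, MAF and NRF family genes, 13 were tested, 6 above 0 and 7 below, with a median log2 ratio of -0.02 and 1 at least 2-fold lower. For this list and those that follow, all 10671 tested genes had 6429 above 0 and 4222 below, with 4.19% at least 2-fold lower. BACH1, a repressor that pairs with small MAF proteins, had 4.74 against 8.65 FPKM. At the other end ATF5 and DDIT3, genes of the stress response, had 20.0 against 11.3 and 40.8 against 24.4 FPKM. Of all 38 genes that the deposited table assigns to the basic leucine zipper family outside the 10 members, 26 were tested and 1 was at least 2-fold lower, with a median of -0.01, against 4 of 10 and -0.70 for the members.

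The MAP kinases that activate AP-1 went both ways. Of 18 kinases 15 were tested, 8 above 0 and 7 below, with a median of 0.03 and 0 past the size rule. The median was -0.10 with 2 kinases at least 2-fold lower when the median ratio of all genes was set to 1. RPS6KA2, a kinase downstream of ERK, had 5.02 against 10.7 FPKM and MAPK11, a p38 kinase, 4.42 against 9.21, while MAPK7 (ERK5) had 8.83 against 6.0 and MAP2K1 (MEK1) 30.05 against 23.1. All 11 SRF, ETS and CREB factors that act at the promoters of these genes were tested, 2 above 0 and 9 below, with a median of -0.10 and 0 past the size rule. MRTFB and ELK3, partners of SRF, had 2.69 against 5.53 and 14.9 against 19.4 FPKM. SRF itself had 13.9 against 11.5 FPKM and the CREB coactivator CRTC3 4.09 against 3.28. Of 5 genes of AP-1 protein turnover, among them the ubiquitin ligase component FBXW7, 4 were tested, with a median of 0.12. In that list COPS5, a signalosome subunit first described as a JUN coactivator, had 10.6 against 7.14 FPKM and COP1 9.78 against 8.53, while ITCH, a ligase for JUN, had 15.7 against 16.8 and FBXW7 2.22 against 2.09.

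Other immediate early genes, which share signal-driven induction with FOS, were lower as a median. Of 18, 13 were tested, 5 above 0 and 8 below, with a median log2 ratio of -0.40, where 4222 of all 10671 tested genes lay below 0. IER3, a survival factor, was at least 2-fold lower at 73.4 against 177 FPKM, as were NR4A2, an orphan nuclear receptor, at 0.949 against 3.47, and the phosphatase DUSP1 at 38.1 against 84.4. KLF10, a TGF-beta induced factor, was at least 2-fold higher at 37.3 against 17.9 FPKM, but short of the rule under each scaling alternative, and CYR61, a matricellular protein, had 17.6 against 10.2.

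Most genes of a list of known AP-1 targets were lower in the library labelled shTRIP13. Of 25, 22 were tested, 5 above 0 and 17 below, with a median of -0.55, where 4222 of all 10671 tested genes lay below 0. In the list 8 were at least 2-fold lower, against 4.19% of all tested genes, and 0 past the size rule in the other direction, against 2.17%. The lowest were the cytokine IL1B, at 2.80 against 394 FPKM, and PTGS2, the inducible cyclooxygenase, at 3.41 against 59.9. The highest were cyclin D1 (CCND1), at 275 against 142 FPKM with a log2 ratio of 0.95, and PLAU, the urokinase, at 131 against 88.5. The list names targets in many cell types and was not chosen from binding data of these cells. It was chosen with earlier results of these data known, so its counts describe the listed genes only.

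**Figure D4:**
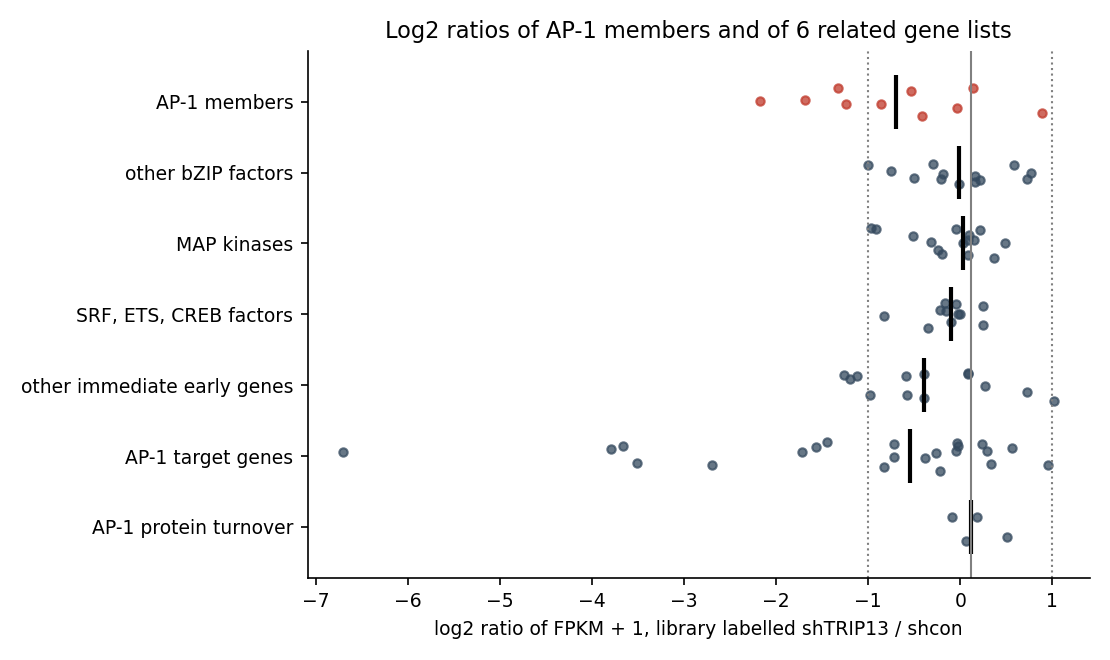
Log2 ratios of FPKM + 1 for the AP-1 members (red) and for the tested genes of 6 related lists (blue), with a black bar at each median, a grey line at the median of all tested genes (0.12) and dotted lines at -1 and 1. The medians of the members (-0.70), the immediate early genes (-0.40) and the AP-1 targets (-0.55) lie left of the others.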

How the data were processed

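RNA from 2 U87MG populations was sequenced, 1 library per group, after preparation with an NEBNext Ultra kit, per the labels' protocols. The authors deposited FPKM per gene. Per the submitters' processing notes, the tools were HISAT2 2.0.5, featureCounts 1.5.0-p3 and edgeR, on hg38, with no role or setting stated; the strand setting is not given in the sources used here. All 58735 gene identifiers were found in GENCODE release 29. The deposited gene length (another value per gene, in bases) times FPKM gave whole multiples of 51.5981 for 100% of values, within 0.001 of a read, and the multiples were taken as reads.

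Log2 ratios used a pseudocount of 1 FPKM and covered protein-coding genes averaging 1 FPKM or more. No test was possible. Members and lists were chosen with earlier results of these data known. Text names all members, TRIP13, markers, 2 genes at each end of each list and the 3 genes nearest to the highest and lowest member; HOOK2, genes near members and the table's basic leucine zipper family were chosen after values were seen. One gene that the rule takes is not reported here. The calculations were tested on simulated data. Alternatives were other pseudocounts, filters and scalings. Scripts ran in Python 3.11.15 with scipy 1.17.1, numpy 2.4.6, matplotlib 3.10.9 and pandas 2.3.3.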

Additional observations from a re-analysis of the deposited data

How the results depend on the processing

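No paired analysis was possible because both groups held 1 library, and none could be left out. Under all 8 alternatives to the pseudocount, filter and scaling, 2 members lay above 0 (FOSL1 and FOSL2) and 0 were at least 2-fold higher. The number at least 2-fold lower was 2 with a pseudocount of 5, FOS and MAFF, and between 3 and 5 otherwise. FOS ranged from -2.63 to -1.29, FOSL1 from 0.74 to 0.88 and JUNB from -1.001 to -0.79. Over all tested genes 232 were higher and 447 lower (34.2% of calls higher). This was 277 and 956 (22.5%) after rescaling to TPM, 139 and 568 (19.7%) with the median ratio set to 1, 408 and 677 with a pseudocount of 0.1 and 64 and 180 with a pseudocount of 5. TPM and the median ratio moved the median of all tested genes, 0.12 as reported, to -0.0062 and -0.0015, a shift of the size of the log2 ratio of FOSL2.

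List medians moved as follows. For AP-1 targets the median was -0.43 with a pseudocount of 5, -0.34 without a filter, -0.38 with a mean FPKM of 5 or more, -0.67 under TPM, -0.68 with the median ratio set to 1, -0.62 with own totals and -0.61 without mitochondrial and the 50 most abundant genes. For other leucine zipper factors it was -0.074 without a filter, -0.10 with a mean FPKM of 5 or more, -0.23 under TPM, -0.15 with the median ratio set to 1, -0.092 with own totals and -0.083 without abundant genes. That of immediate early genes was -0.71 under TPM. With the median ratio set to 1 that of SRF, ETS and CREB factors was -0.23 and that of MAP kinases -0.10, which turned its sign. The median of MAP kinases was also negative under TPM (-0.053), with own totals (-0.039), without abundant genes (-0.031) and without a filter (-0.0048). Counts at least 2-fold lower were 2 for MAP kinases with a pseudocount of 0.1, under TPM and with the median ratio set to 1, and 1 with own totals or without abundant genes. For SRF, ETS and CREB factors it was 1 with a pseudocount of 0.1 and under TPM. For other leucine zipper factors it was 1 as reported, 0 with a pseudocount of 5 and 2 under TPM. For immediate early genes it was 3 as reported and 6 under TPM. The background also differed under TPM, where 7.85% of 12183 tested genes were at least 2-fold lower, against 4.19% of 10671 as reported. KLF10 fell short of 2-fold, leaving 0 immediate early genes higher, with a pseudocount of 5, under TPM, with the median ratio set to 1, with own totals and without abundant genes.

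As shares of reads in place of FPKM, which favour long transcripts, FOSL1 took 69.2% of the FOS family in the library labelled shTRIP13 against 54.5% in the shcon library, FOSL2 30.1% against 39.5%, FOS 0.439% against 4.14% and FOSB 0.265% against 1.89%. JUN took 83.4% of the JUN family against 75.2%, JUNB 9.64% against 15.7% and JUND 6.99% against 9.05%. Depth limits FOSB, FOS and BATF3 most, with 67, 111 and 144 reads in the library labelled shTRIP13.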

Other observations

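Genes within 5 kb of a member gave values that belong in no comparison above. CCDC85B, which ends 413 bases from FOSL1, was at 336 FPKM in the library labelled shTRIP13 and 194 FPKM in the shcon library. Its own-total ratio was 1.64 (1.59 to 1.70). FIBP, which lies on the same side of FOSL1 beyond CCDC85B, had 31.4 against 24.6 FPKM. PLA2G6, which overlaps the start of MAFF on the opposite strand without shared exon bases, had 1.21 against 4.97 FPKM, and TMEM184B, beyond its other end, 12.1 against 21.02. Near JUN, the noncoding gene LINC01135 had 12 against 37 reads. ERCC1, which spans FOSB on the opposite strand without shared exon bases, had 14.8 against 17.9 FPKM, and next to JUNB, PRDX2 had 29.5 against 27.8.

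Among 8569 tested genes with a RefSeq promoter window, 3.90% had a log2 ratio of -1 or less. This share was 6.91% of the 434 genes whose window held the AP-1 site TGACTCA, 10.1% of the 178 with TGACATCA, 3.67% of the 1254 with TGACGT, 3.55% of the 338 with TGACGTCA, 5.26% of the 133 with a CArG box and 9.66% of the 611 with a TATA box. The shares with a log2 ratio of 1 or more were 1.84%, 1.69%, 2.31%, 3.25%, 2.26% and 1.80% in the same order, against 2.10% of all. The gene sets overlap, the searches were chosen after the data were seen, and no test was made.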
